A study of Ovis aries with 10 samples.

Results

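The 200 most abundant genes in the cecal epithelium of pregnant Hu sheep are described here, out of 17915 genes listed in 10 libraries. They were chosen by their mean FPKM over all 10 libraries, and the feeding group of a library was not used in the choice. FPKM is the number of fragments of a gene scaled to the length of its transcript and to the mapped fragments of the library, so it allows for length and can be compared between genes of 1 library. The 200 genes are 1.12% of those listed.

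The libraries came from 5 ewes of the control (CON) group and 5 of the treated (TR) group, with 1 library per ewe. All were Hu sheep ewes labelled as wild type, in late gestation from day 115. For 15 days the CON ewes received the full ad libitum feeding level and the TR ewes 30% of it, and the cecum was then taken. The comparison asks how undernutrition in late gestation changed the epithelial transcriptome.

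In most tissues a small set of genes accounts for a large part of the messenger RNA, and it usually mixes genes that every cell uses with genes that mark the work of that tissue. The lining of the cecum absorbs the short-chain acids that hindgut microbes make and separates these microbes from the immune cells beneath it. The deposited genes carry internal numbers that no source used here pairs with names, and 0 of the 17915 numbers matched the sheep gene table at hand. The roles of the 200 genes are therefore not given, their sequences are not shown, and the tissue label could not be checked against marker genes. Genes are given by their rank in mean FPKM, and a few by number.

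The libraries differed in summed FPKM, but little in the level of a typical gene. FPKM summed to 403256 to 510600 per library. Size factors, the median ratio of a library's genes to their geometric means, were 0.968 to 1.061, with CON2 at 0.994. The 200 genes summed to 259463 FPKM in CON2 and to 167030 to 215055 FPKM in the other libraries. The depth in reads is unknown, and precision was taken from the spread between ewes. CON2 had the highest sum and stood apart in the 200 genes, as described below, so several results are also given without it. All 200 genes passed the filter for testing (at least 0.2 FPKM in at least 5 libraries), which 14730 genes passed.

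Abundance fell steeply within the 200 genes. The mean was 5903 FPKM at rank 1, 1725 FPKM at rank 20, 717 FPKM at rank 100 and 304 FPKM at rank 200, and 66 of the genes had a mean of 1000 FPKM or more. The first 48 ranks held 50% of the summed mean FPKM of the 200 genes. The last gene chosen, gene19220, had a mean of 304 FPKM, and the first one left out, gene25272, had 300 FPKM. The gene left out varied less between libraries, from 264 to 344 FPKM against 235 to 473 FPKM, so the limit at rank 200 parts genes of nearly the same level.

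**Figure D1:**
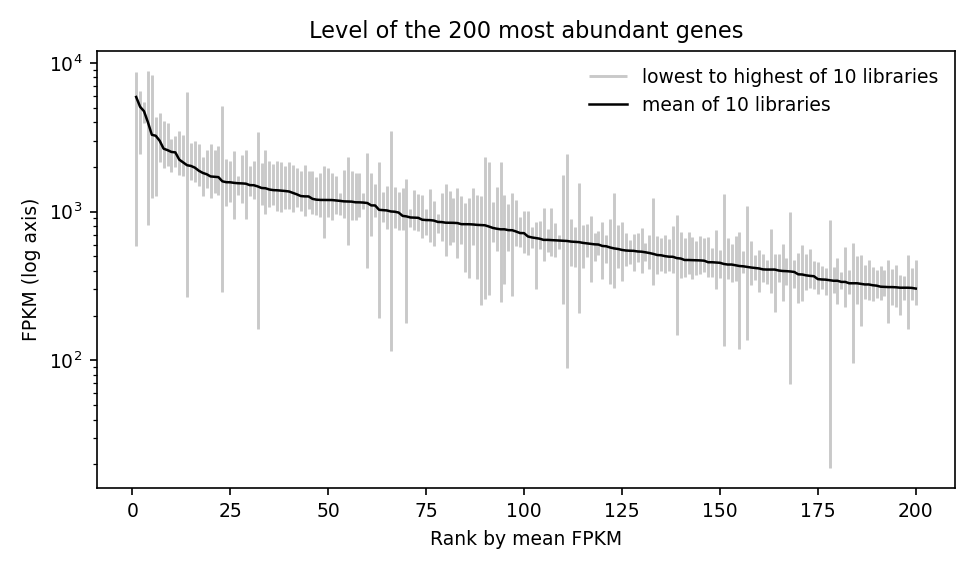
The horizontal axis is the rank of a gene by mean FPKM and the vertical axis its FPKM on a log scale, with the mean of 10 libraries as a black line and the lowest to highest library as grey bars. The mean falls from 5903 to 304 FPKM, and a few bars are far longer than their neighbours, such as rank 178, which spans 18.9 to 873 FPKM.

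No member was listed at 0 in any library, and 196 of the 200 stayed at 100 FPKM or more in every library. The ratio of the highest to the lowest library had a median of 1.96 (quartiles 1.69 and 2.52) and was under 2 for 110 genes. It was 10 or more for 11 genes. Most of the 200 genes were thus abundant in every ewe, and a minority moved over a wide range.

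The ranking was shared widely but not fully. When each library was ranked alone, 253 genes were among the 200 highest of at least 1 library, and 151 were so in all 10, each of them a member. CON libraries held 184, 187, 190, 194 and 185 of the members among their own 200 highest genes (CON1 to CON5), and TR libraries held 187, 188, 188, 175 and 187 (TR1 to TR5). TR4 was the lowest of the 10. The group means were 188 ± 4.06 (SD, n = 5) and 185 ± 5.61 (SD, n = 5), with p = 0.49 in a two-sided exact permutation test (adjusted p = 0.98 over the 4 measures tested per library). Chosen on the CON libraries alone, the 200 highest genes would include 192 of the members, and on the TR libraries alone 190. Of the members, 182 were in both of these lists, 10 only in the CON list and 8 only in the TR list.

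Rank order among the 200 genes was more alike, in the median, within a feeding group than between the groups, but the ranges overlapped. Spearman's rho across these genes had a median of 0.881 over the 10 CON pairs and 0.869 over the 10 TR pairs, and 0.775 over the 25 pairs of a CON with a TR library. The lowest was 0.643, between CON2 and TR2, and the highest was 0.963, between CON3 and CON4. CON2 also gave the lowest value within the CON group, 0.719 with CON1. Over all tested genes the medians were 0.967 for CON pairs, 0.969 for TR pairs and 0.962 for pairs of a CON with a TR library. A gene that is high in 1 group is drawn into the list of 200 by that group. The gap among the 200 genes is therefore not read as an effect of feeding on rank order. These values are across genes, which are not independent, and each library enters several pairs, so they are given without a test.

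The 5 genes of highest mean differed strongly in how steady they were. The third, gene15688, had 5064, 4212, 4946, 4828 and 4240 FPKM in CON1 to CON5 and 3964, 4905, 4714, 5438 and 5048 FPKM in TR1 to TR5. Its 2 groups overlapped almost fully, and its highest library was only 1.37 times its lowest. The second, gene12298, had 6468, 5555, 5098, 2438 and 5952 FPKM in the CON libraries and 4330, 5354, 3348, 6060 and 6139 FPKM in the TR libraries. It was the highest gene of CON1, CON5 and TR4, and CON4 was its lowest library. Its log2 fold change between the groups was 0.02 (standard error 0.31, limma adjusted p = 0.98).

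The first, gene6592, had 6452, 7827, 7282, 4776 and 5425 FPKM in CON1 to CON5 and 8531, 4011, 585, 5489 and 8650 FPKM in TR1 to TR5. TR3 was far below every other library for this gene, while TR1 and TR5 were above all CON libraries. The TR values thus spanned the CON values on both sides, and the log2 fold change of -0.66 (standard error 0.63, limma adjusted p = 0.7) was within the spread between ewes. Without TR3 it was 0.02. The fifth, gene13660, had 1233, 1481, 1299, 2447 and 1423 FPKM in the CON group and 5971, 5723, 3167, 1864 and 8274 FPKM in the TR group. Only TR4 lay within the CON range. Its mean was 1577 ± 496 FPKM (SD, n = 5) in CON and 5000 ± 2519 FPKM (SD, n = 5) in TR, a log2 fold change of 1.53 (standard error 0.38) that missed the threshold (limma adjusted p = 0.059). Without TR4 it was 1.84 with an adjusted p of 0.016, and with array weights, which let libraries differ in precision, 1.61 with an adjusted p of 0.024 (limma). Without any other single library its adjusted p was 0.064 to 0.14 (limma). The fourth, gene10801, was lower in TR and is described below.

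The 200 genes together held 41.4%, 50.8%, 47.2%, 42.0% and 40.8% of the summed FPKM in CON1 to CON5, and 42.8%, 43.4%, 44.8%, 44.4% and 44.0% in TR1 to TR5. All TR libraries lay within the CON range, which CON2 and CON3 stretched upwards. The mean was 44.4% ± 4.38 (SD, n = 5) in CON and 43.9% ± 0.802 (SD, n = 5) in TR (two-sided exact permutation test, p = 0.81, adjusted p = 0.99 over 4 measures). Without CON2 the CON mean was 42.8% ± 2.93 (SD, n = 4), below the TR mean (exact permutation test, p = 0.48), and without CON3 the difference of TR from CON was 0.132 percentage points, also with TR higher (exact permutation test, p = 0.98). This share is of summed FPKM, and it says nothing of the total RNA per cell or of the number of cells, which cannot be told apart in bulk tissue.

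The share of the 20 highest members was 13.2% ± 0.898 (SD, n = 5) in CON and 13.1% ± 0.555 (SD, n = 5) in TR (exact permutation test, p = 0.99, adjusted p = 0.99). The lowest library was CON4 with 11.8% and the highest CON2 with 14.0%. The evenness with which the 200 genes divided their sum was not found to differ. The effective number of members, which is the number of equally abundant genes that would give the same evenness, was 149 ± 4.87 (SD, n = 5) in CON and 146 ± 4.14 (SD, n = 5) in TR (exact permutation test, p = 0.31, adjusted p = 0.98). The smallest p that 5 against 5 libraries allow is 0.0079.

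**Figure D2:**
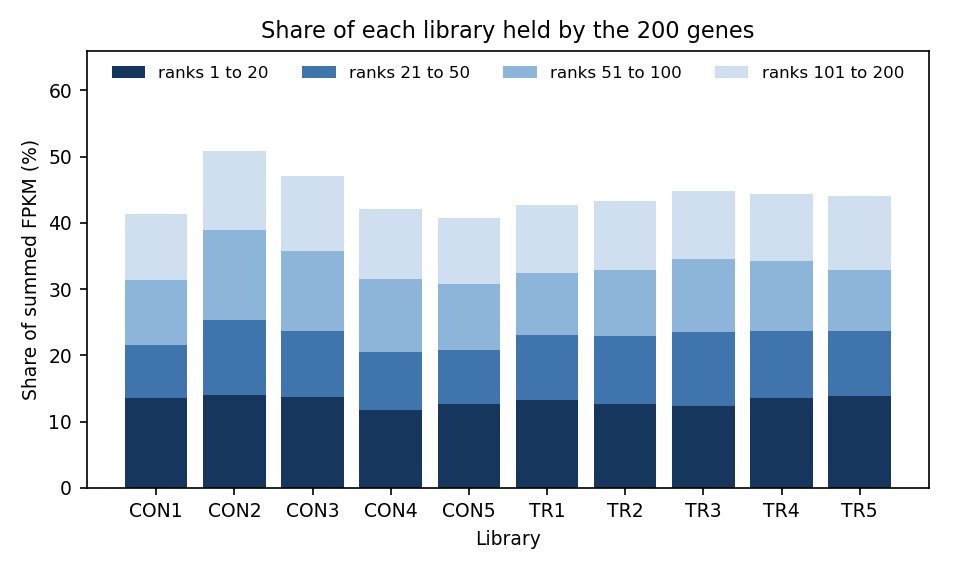
Each bar is 1 library and its height the percentage of the summed FPKM held by the 200 genes, stacked by rank from the darkest (ranks 1 to 20) to the lightest (the last 100 ranks). The bars reach 40.8% to 50.8%, CON2 and CON3 are the tallest, and the 5 TR bars lie between 42.8% and 44.8%.

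Many of the 200 genes varied together between ewes of the same group. To see this, each gene's deviation from its group mean was taken on the log2(FPKM + 0.1) scale, and genes were joined by the correlation of these deviations across the 10 libraries. The largest of the resulting groups held 111 members, 55.5% of the 200, and the next ones held 21 and 15. With a stricter cut for joining genes (0.3 in place of 0.4) the largest held 97 members, and without CON2 it held 92. Neither is a majority of the 200, and the cut was set after the data were seen. Within the 111 genes the median correlation between 2 genes was 0.88 (quartiles 0.75 and 0.94). Over all pairs of the 200 genes it was 0.42, against 0.18 for the 200 genes ranked next and 0.12 for the 200 after those. The group was formed on these same values, so its correlations describe it and are not tested. All genes of a library also share its total and its depth.

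The 111 genes were highest in CON2 in 107 cases. Their median deviation from the gene's mean of all libraries, on the log2 scale, was -0.23, 0.63, 0.29, -0.06 and -0.21 in CON1 to CON5 and -0.31, -0.14, 0.12, 0.09 and -0.14 in TR1 to TR5. CON2 and CON3 were thus high, TR3 and TR4 slightly high, and CON1, CON5 and TR1 low. TR1 was the lowest library for 68 of the 111. In levels, these genes held 33.2% of the summed FPKM in CON2, 29.1% in CON3 and 27.3% in TR3, and 20.6% in TR1. The group means were 26.2% ± 4.89 (SD, n = 5) in CON and 23.2% ± 2.82 (SD, n = 5) in TR, and the groups overlapped. Without CON2 the CON mean was 24.5% ± 3.44 (SD, n = 4).

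The 111 genes spanned the ranks, with 11 of the 20 highest members and 67 of the 100 highest among them. None of the 5 highest was included, and the first was at rank 7. The other 89 members varied together less, which the grouping itself brings about. Their median pairwise correlation was 0.21. The 200 genes ranked next had 0.18 with no group taken out of them, so the 2 values cannot be compared directly. The share of each library held by the 89 was 18.2% ± 1.06 (SD, n = 5) in CON and 20.7% ± 2.14 (SD, n = 5) in TR. Leaving CON2 out gave a largest group of 92 members, 91 of which were among the 111, and the median correlation over all pairs of the 200 genes was then 0.30, against 0.17 for the 200 genes ranked next.

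**Figure D3:**
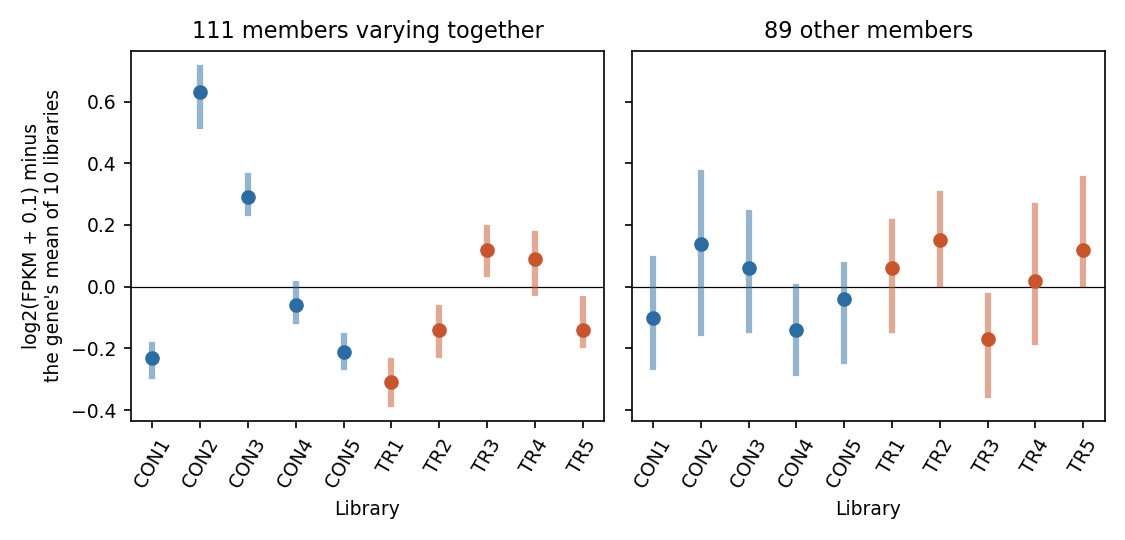
For each library, the point is the median and the bar the quartiles, over genes, of log2(FPKM + 0.1) minus the gene's mean of all 10 libraries, with CON in blue and TR in orange. In the 111 members that varied together CON2 lies at 0.63 and TR1 at -0.31 with short bars, while in the 89 other members the bars are wider and the medians lie between -0.17 and 0.15.

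CON2 was the highest library for 133 of the 200 members, 66.5%. It was so for 240 of the 800 genes ranked next and for 18.2% of all tested genes. CON2 was also the lowest library for 21.1% of all tested genes, the largest share of the 10 libraries. The excess of fold changes below 0 depended on this library. With all libraries, 141 of the 200 members (70.5%) had a log2 fold change below 0 in TR, with a median of -0.13, against 56.4% and a median of -0.04 for all tested genes. Without CON2 it was 105 of 200 (52.5%), against 59.2% of all tested genes, and without any other library it was 132 to 147.

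Between ewes of 1 group, the median spread of the 200 genes was larger than that of the genes ranked next. The pooled SD within groups, on the log2(FPKM + 0.1) scale, had a median of 0.30 (quartiles 0.23 and 0.38) over the members, 0.21 (quartiles 0.16 and 0.31) over the 800 genes ranked next and 0.34 over the tested genes past rank 5000. It was under 0.2 for 29 members and over 0.5 for 26. The steadiest members were gene1497, at rank 181, which ran from 303 to 337 FPKM in CON and from 310 to 390 FPKM in TR, and gene6731, at rank 109, which ran from 593 to 683 FPKM in CON and from 564 to 692 FPKM in TR. Both had a within-group SD of 0.10.

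The least steady member was gene5598, at rank 111. It had 376, 1315, 88.3, 88.2 and 140 FPKM in CON1 to CON5 and 780, 898, 97.6, 125 and 2444 FPKM in TR1 to TR5. Low values near 100 FPKM and values several times higher occurred in both groups, and TR5 was the highest and CON4 the lowest. Its within-group SD was 1.84, and its log2 fold change of 1.05 (standard error 0.96, limma adjusted p = 0.68) was well inside that spread.

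Undernutrition was accompanied by higher levels of 6 of the 200 genes and lower levels of 5, at an adjusted p under 0.05 from limma on log2(FPKM + 0.1), adjusted over all 14730 tested genes. Of all tested genes, 0.509% were higher and 2.02% lower in TR, so 6 of 200 is above and 5 of 200 near the background. In either direction it was 11 members, against 2.53% of all tested genes. The counts cannot be read as a property of abundant genes, because a gene that is high in 1 group is drawn into the list by that group. Of the 11 genes, 4 were among the 200 highest by the TR mean and not by the CON mean, 3 only by the CON mean, and 4 by both. Chosen on the CON libraries alone, the list held 2 genes that were higher and 6 that were lower in TR. A list chosen on the TR libraries alone held 7 higher and 2 lower.

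By tiers of rank, 1 gene was higher and 1 lower among ranks 1 to 20, and 2 were higher among ranks 21 to 50. Ranks 51 to 100 held 1 lower gene, and the last 100 ranks held 3 higher and 3 lower genes. Of the 800 genes ranked next, 9 were higher and 19 lower, which is 3.50% of them. An unadjusted p under 0.05 was seen for 32 of 200 members, against 15.5% of all tested genes. The 5 TR values lay all above or all below the 5 CON values in 10 of 200 members, against 4.42% of all tested genes, a count near the background.

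The number of higher genes depended on single libraries. It was 3 without CON1, CON2, CON4, CON5 or TR5, 2 without TR1 or TR2, 1 without CON3, 5 without TR4 and 7 without TR3, each time with 1 library fewer in the test. The share of all tested genes called higher moved as well, and was 0.191% without CON3, 0.218% without TR1, 0.205% without TR2 and 0.287% to 0.573% without any other library. The number of lower genes was 4 to 6 in all of these, while 0.778% to 2.16% of all tested genes were lower. None of the 11 genes changed sign under any setting. They were chosen on these libraries, so that is no separate support.

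**Figure D4:**
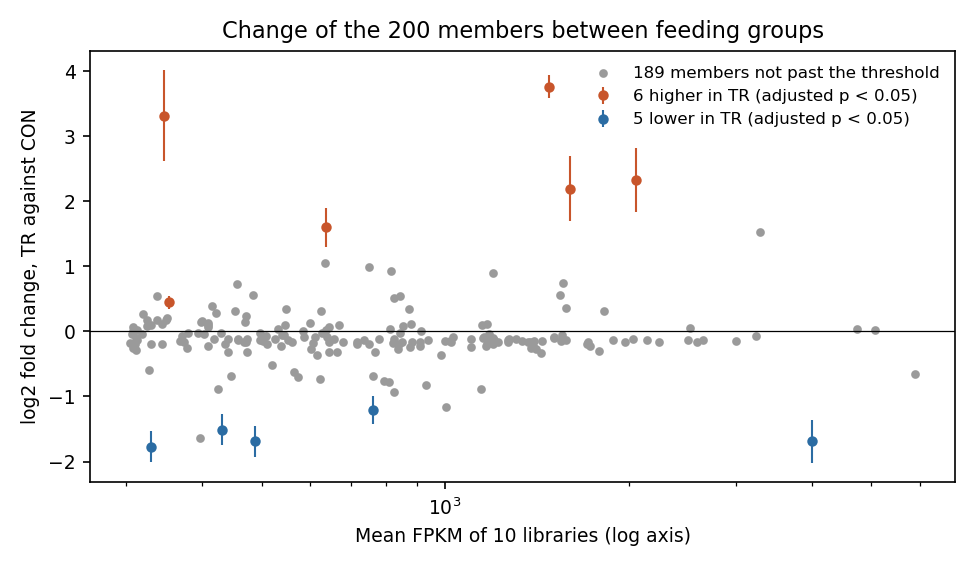
Each point is 1 of the 200 genes, with its mean FPKM on a log axis and its log2 fold change of TR against CON on the vertical axis, and bars give the standard error for the 11 genes past the threshold. Most of the 189 grey points lie near 0, the 6 orange points run from 0.45 to 3.76 and the 5 blue points from -1.77 to -1.21.

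The clearest rise was that of gene9954, at rank 32. It had 220, 167, 221, 238 and 162 FPKM in CON1 to CON5 and 2928, 3446, 2756, 1899 and 2753 FPKM in TR1 to TR5. The groups were far apart, with the lowest TR library several times above the highest CON library. The log2 fold change was 3.76 (standard error 0.18, limma adjusted p = 1.8e-06), and the gene kept its call in all 18 alternatives. Within each group it was steady, with a within-group SD of 0.29. By its CON mean alone it would not be among the 200 highest genes, which also held for gene4891 and the genes at ranks 110 and 175, described next.

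The second largest rise was that of gene4891, at rank 178, whose within-group SD of 1.33 was the second largest of the 200. It had 45.6, 408, 64.3, 21.1 and 18.9 FPKM in CON1 to CON5 and 724, 569, 294, 442 and 873 FPKM in TR1 to TR5. CON2 lay above TR3, and the other 4 CON libraries were below all TR libraries. The log2 fold change was 3.31 (standard error 0.70, limma adjusted p = 0.031), and it was 2.93 to 3.37 without CON1, CON3, CON4, CON5, TR1, TR2 or TR5, each of which lost the call, with a highest adjusted p of 0.082. A second member, at rank 23, has a number that differs from it by 2, and how numbers were assigned is not given in the sources used here. Its values were 573, 711, 604, 336 and 290 FPKM in CON and 3306, 2167, 555, 2319 and 5140 FPKM in TR, with TR3 again the lowest TR library and TR5 the highest. Its log2 fold change was 2.19 (standard error 0.50, limma adjusted p = 0.044), and leaving out any library but TR3 lost the call, with a highest adjusted p of 0.11. The deviations of the 2 genes within groups correlated with r = 0.63 over 10 libraries, the highest of the 15 pairs among the 6 genes that rose. Over all pairs of the 200 genes the median was 0.42, with an upper quartile of 0.76, so this value is within the ordinary range.

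Of the other 3 genes that rose, the one at rank 14 had 681, 736, 265, 538 and 899 FPKM in CON and 3742, 3648, 6345, 2841 and 821 FPKM in TR. It was the highest gene of TR3, where rank 1 was at its lowest, while TR5 fell among the CON values. Its log2 fold change was 2.32 (standard error 0.49, limma adjusted p = 0.031), lost without CON2, CON3, CON4, TR1, TR2, TR3 or TR4 and kept without CON1, CON5 or TR5. The gene at rank 110 had 239 to 397 FPKM in CON, with a median library of 274, and 1765, 783, 652, 513 and 1176 FPKM in TR. Its groups did not overlap, with a log2 fold change of 1.60 (standard error 0.30, limma adjusted p = 0.018, and 0.056 without CON3). The gene at rank 175 showed the smallest change called, from 298 ± 18.4 FPKM (SD, n = 5) to 407 ± 35.1 FPKM (SD, n = 5), a log2 fold change of 0.45 (standard error 0.10, limma adjusted p = 0.043). It had a within-group SD of only 0.11, its groups did not overlap, and leaving out any library but TR3 took its adjusted p above 0.05. The 6 genes did not move together within groups, with pairwise correlations of -0.70 to 0.63 and a median of 0.01.

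Of the genes that fell, gene10801, at rank 4, was the most abundant. It had 6121, 8880, 5651, 4577 and 4887 FPKM in CON1 to CON5 and 819, 1657, 2238, 2359 and 2739 FPKM in TR1 to TR5. Every CON library was above every TR library, and in CON2 it was the highest of all genes. It took 1.36% of the summed FPKM on average in CON and 0.454% in TR. The log2 fold change was -1.69 (standard error 0.33, limma adjusted p = 0.024), and the adjusted p was 0.06 without CON3 and 0.067 without TR2 (limma).

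The largest fall was that of gene23085, at rank 184, with 614, 496, 448, 403 and 564 FPKM in CON1 to CON5 and 103, 155, 95.9, 192 and 228 FPKM in TR1 to TR5. The groups did not overlap, and TR3 and TR1 were the lowest. Its log2 fold change was -1.77 (standard error 0.24, limma adjusted p = 0.005), and it kept its call in all 18 alternatives. The gene at rank 139 followed it closely within groups, with r = 0.92 over 10 libraries. It had 949, 559, 669, 603 and 918 FPKM in CON and 149, 240, 166, 308 and 309 FPKM in TR, a log2 fold change of -1.69 (standard error 0.24, limma adjusted p = 0.0059).

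The gene at rank 155 was even in CON, with 583 to 728 FPKM, and ran in TR from 120 FPKM in TR1 to 371 FPKM in TR5, with a median library of 214 FPKM, so the groups did not overlap. Its log2 fold change was -1.51 (standard error 0.24, limma adjusted p = 0.0097). The gene at rank 95 had 1292, 830, 1149, 902 and 1099 FPKM in CON and 383, 691, 393, 543 and 324 FPKM in TR, a log2 fold change of -1.21 (standard error 0.21, limma adjusted p = 0.014). By the TR mean alone, gene23085 and the genes at ranks 139 and 155 would not be among the 200 highest. In all 5 genes that fell, the 2 groups were apart. Pairwise correlations within groups had a median of 0.47 and a range of -0.11 to 0.92.

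**Figure D5:**
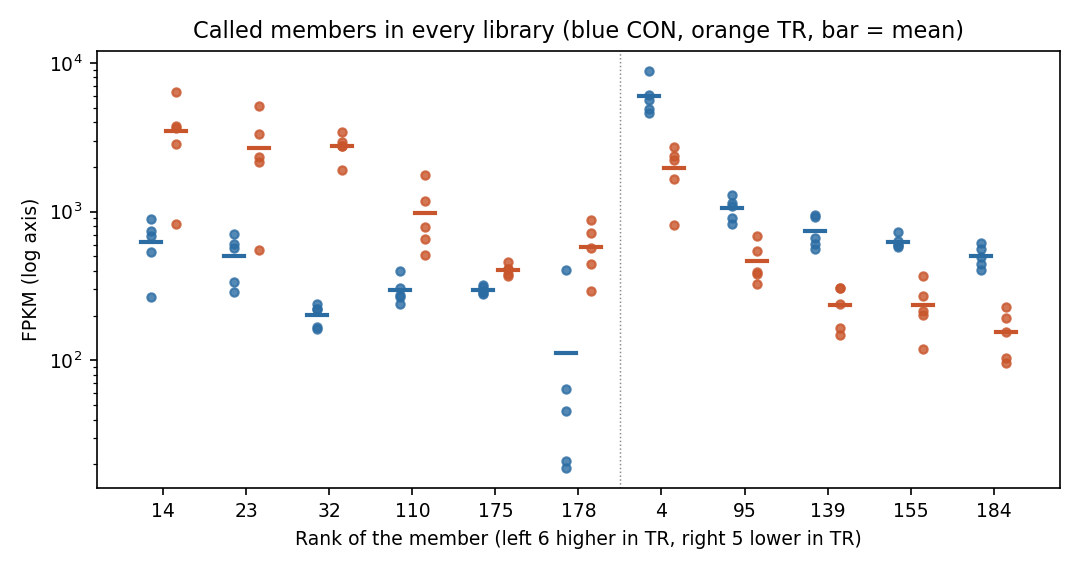
The FPKM of the 11 genes past the threshold is plotted on a log axis for every library, CON in blue and TR in orange, with a short bar at the group mean and genes given by rank. The 6 genes on the left are higher in TR and those of ranks 14, 23 and 178 overlap between groups, while the 5 on the right are lower in TR and none overlaps.

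None of the 11 genes belonged to the 111 that varied together (0 called by limma, against 2.53% of all tested genes). At an unadjusted limma p under 0.05 there were 0 higher and 3 lower among the 111, against 15.5% of all tested genes in either direction. The grouping used the same within-group deviations that set the error of the test, so grouping and call are not independent. The 111 genes had a median log2 fold change of -0.16, which was -0.03 without CON2, and the 89 others one of 0.08, which was 0.09 without CON2. Of each library's FPKM sum, the 6 genes that rose took 0.464% ± 0.0690 (SD, n = 5) in CON and 2.55% ± 0.440 (SD, n = 5) in TR. The 5 that fell took 2.04% ± 0.273 (SD, n = 5) and 0.707% ± 0.196 (SD, n = 5). These genes were chosen for the difference, so the sums are a description.

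A fitted change over 2-fold was seen in 14 members, and 10 of these passed the threshold. The other 4 included gene13660 and gene5598. The member at rank 168 had 341, 1002, 560, 367 and 700 FPKM in CON and 253, 206, 152, 69.4 and 308 FPKM in TR. Its groups did not overlap, but its log2 fold change of -1.64 (standard error 0.40) missed the threshold (limma adjusted p = 0.056). The member at rank 66 had 324, 3489, 1825, 1240 and 411 FPKM in CON and 672, 420, 870, 116 and 663 FPKM in TR, again with CON2 and CON3 highest, and its log2 fold change was -1.16 (standard error 0.69, limma adjusted p = 0.48).

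There were 5 pairs of members with consecutive numbers. In 2 of them the genes varied together within groups, with r = 0.95 for ranks 7 and 17 and r = 0.88 for ranks 134 and 200, and all 4 genes had log2 fold changes between -0.19 and -0.14. These 4 genes were among the 111 that varied together, where the median r between any 2 genes was 0.88, so their correlations are ordinary for that group. In the other 3 pairs r was -0.15 to -0.04. There, the neighbour in number of the gene at rank 139, which fell, was at rank 39 and had a log2 fold change of -0.17 (limma adjusted p = 0.76). The neighbour of the gene at rank 14, which rose, was at rank 24 and had one of 0.36 (limma adjusted p = 0.44).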

How the data were processed

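Cecal epithelium of 10 ewes was sequenced, 5 per group. The authors aligned filtered mRNA reads by HISAT2 to release 4.0 of the sheep genome and deposited FPKM values per gene. No source used here names the tool behind FPKM or the annotation. Titles and treatment entries gave the groups, since the labels list restricted feeding as the protocol of all samples. In each file 1 row of annotation text was left out. Whole reads were looked for in the 1176 genes below 0.1 FPKM in all libraries. Over pairs of libraries, 1.15% to 3.85% of genes shared 1 ratio (within 0.002 on the natural log scale), so counts were not recovered, depth is unknown and the count test of the study was not run.

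The 200 highest mean FPKM values defined the members. They, the lists and the tests were chosen with earlier results of these data known. A gene was tested where 5 or more libraries reached 0.2 FPKM, with limma 3.58.1 in R 4.3.3 on log2(FPKM + 0.1), with a variance trend, two-sided, with Benjamini-Hochberg adjustment. The pseudocount slightly shrinks fold changes. The test was tried on simulated data in which genes varied independently of each other, unlike many members here. The false share of its calls, 4.9% there, may thus differ in these data. It recovered 24.8% of 1.5-fold, 63.8% of 2-fold and 90.9% of 4-fold changes, and 56.8% of 2-fold changes placed in the 200 members. Many changes of 2-fold or less can therefore be missed. Library-level measures were compared by exact permutation in Python 3.11.15. Co-varying genes were found by average linkage of 1 minus Pearson's r, with a cut at 0.4 set after the data were seen. Genes given by number were the 5 of highest mean, the 2 largest rises and falls past the threshold, the 2 largest and smallest within-group spreads and the last gene chosen and the next one. Others described by rank were taken after their values were seen. P-values set a difference between the groups against the variation between libraries. With 1 library per ewe, that variation cannot be split into ewe and sample preparation.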

Additional observations from a re-analysis of the deposited data

Results flagged for a closer look

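The 5 libraries of a group were set against each other 34 times, once per group for each measure or gene given by number, and in 4 cases 1 library lay far from the rest. For normally distributed values about 1 in 20 groups does so by chance. That rate need not hold here, because FPKM was compared without a log. In addition, gene4891 and gene5598 had been picked for their large spread. TR4 held 175 of the 200 genes among its own 200 highest, while the other TR libraries held 187 to 188. For gene13660, CON4 had 2447 FPKM and the other CON libraries 1233 to 1481 FPKM. CON2 stood apart for gene4891, with 408 FPKM against 18.9 to 64.3 FPKM, and for gene5598, with 1315 FPKM against 88.2 to 376 FPKM.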

How the results depend on the processing

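Higher and lower members, 6 and 5 as reported, were 11 and 6 with array weights, where 1.09% of all tested genes were higher and 3.54% lower, and 2 and 4 with a replicate block, which leaves fewer degrees of freedom and called 0.197% higher and 0.679% lower. With the block, 2 of the 6 and 3 of the 5 were called again, and the genes at ranks 4, 14, 23, 95, 175 and 178 were not (limma adjusted p of 0.059 to 0.15). The lists of the 100 and 500 highest genes held 2 and 12 lower genes, and that of the 100 highest 3 higher ones, as lists of other sizes. Members chosen on the CON libraries gave 2 higher genes, and members chosen on the TR libraries 2 lower ones. All these lists used the main fit, in which 0.509% of all tested genes were higher and 2.02% lower. Leaving out 1 library gave 1 to 7 higher and 4 to 6 lower members. The share of the 20 highest members differed between TR and CON by -1.75 percentage points (exact permutation test, p = 0.04) if members were chosen on CON and by 1.48 (p = 0.032, exact permutation test) if chosen on TR, and the number of members among a library's own 200 highest by -9.60 (exact permutation test, p = 0.016) if chosen on CON. Lists chosen on 1 group favour that group by construction. No library measure passed the threshold of its exact permutation test when 1 library was left out. Same-numbered libraries showed no pairing (r of -0.171 to 0.051 across genes, 0 of 5 CON libraries best with its own number), and paired exact tests of the library measures, whose smallest p is 0.0625, could not reach 0.05. Of all called genes, 79.8% were lower in TR, and 71.0% and 69.3% with median-of-ratios scaling and quantile normalization, which gave 6 and 5 and 7 and 6 higher and lower members. Of all tested genes, 0.638% were higher and 1.56% lower with the scaling, and 0.625% and 1.41% with quantile normalization. Cuts of 0.3 and 0.5, chosen after seeing the data, gave a largest co-varying group of 97 and 115 members, and leaving out TR3 gave 119. Depth is unknown.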
